A study of Bactrocera dorsalis with 16 samples.

Results

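In the oriental fruit fly, Bactrocera dorsalis, 3 vitellogenin-like genes were followed in the ovary and fat body of ageing adult females: MSTRG.3977, annotated as vitellogenin-3-like, and MSTRG.3979 and MSTRG.3980, both annotated as vitellogenin-1-like. They were chosen by their product name and by a fall of their transcripts with age in the ovary, and they are 3 of the 13759 genes in the table and 3 of the 9 genes whose product is a numbered vitellogenin. The fall in the ovary was used to choose them, so their ovary values are a description and carry no test. Only MSTRG.3977 was lower at each later ovary age. MSTRG.3979 and MSTRG.3980 were higher at day 5 than at day 1 and low from day 9 on.

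Vitellogenins are the precursors of yolk, the food store of the egg. In higher flies such as Drosophila the yolk proteins belong to a family related to lipases, although they are not thought to act as enzymes. They are made in the fat body, the organ that stores nutrients and secretes blood proteins, and in the follicle cells around the oocyte, and the growing oocyte takes them up by receptor-mediated endocytosis. In flies their genes are known to respond to ecdysone, juvenile hormone, feeding and the female form of the sex determination factor Doublesex.

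Both organs were taken from adult females 1, 5, 9 and 13 days after they emerged from the pupa. Each tissue and age has 2 libraries, which makes 16 libraries in 8 groups. The labels name no mutant, transgene or drug treatment, and all groups came from flies reared on the same yeast and sugar diet. The series describes the libraries of a group as biological replicates, but the labels do not say how many flies each one held, and p-values measure the spread between these libraries. Values are FPKM, fragment counts scaled to transcript length and to the size of the library, so levels can be compared between genes per length.

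The depth of the libraries is not given, and no counting interval is stated. Sums of FPKM ran from 290383 to 405928 per library, and 7425 to 9054 genes reached 1 FPKM. The summed level of 10 germ cell marker genes lay between 531 and 1414 FPKM in the 8 ovary libraries and between 27.1 and 62.0 FPKM in the 8 fat body libraries. The 20 fat body markers summed to between 613 and 1484 FPKM in the ovary and between 1749 and 26582 FPKM in the fat body. The ranges of these sums did not overlap between the tissues for either list, but not every marker separated them. In the fat body sum of day 13, transferrin MSTRG.6582 alone measured 16600 and 23800 FPKM. Melanotransferrin MSTRG.5279, of the fat body list, measured 25.3 to 36.1 FPKM in the ovary and 6.39 to 19.8 FPKM in the fat body. Muscle markers were present in both tissues and are given beside the results they move with.

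The annotation sets the 3 genes apart from the best-known yolk genes of the table. All 3 carry the same 5 gene ontology terms, which name the extracellular space, lipid catabolism, lipase activity, carboxylic ester hydrolase activity and reproduction. Exactly that set of terms is held by 5 genes of the whole table, the 3 genes and MSTRG.3974 and MSTRG.3978, which are also vitellogenin products. The ontology term for vitellogenesis is held by the 4 other vitellogenins, MSTRG.3414, MSTRG.3415, MSTRG.10714 and MSTRG.10715, and by 0 of the 3 genes. The lipoprotein lipase entry of the KEGG orthology is assigned to 16 genes of the table, among them 8 of the 9 vitellogenins and all 3 genes described here. These terms are annotation, not measured activities.

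The 5 genes with that set of terms have identifiers numbered close together, and several share a product name. The sources used here do not say how fragments that match more than 1 of such copies were counted. The levels of MSTRG.3977, MSTRG.3979 and MSTRG.3980, and of MSTRG.3974 and MSTRG.3978 beside them, are therefore uncertain as levels of single genes. Positions and sequences of these genes are not given here.

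MSTRG.3980 was the most abundant of the 3 genes. In the ovary it measured 1031 and 794 FPKM in the libraries of day 1, 2373 and 2070 FPKM at day 5, 29.6 and 33.6 FPKM at day 9, and 13.2 and 18.7 FPKM at day 13. No library of one ovary age overlapped with those of another. Among all 13759 genes its mean level ranked 47th in the ovary at day 1, 8th at day 5, 1780th at day 9 and 3757th at day 13. From day 1 to day 5 its mean was 2.43-fold higher, and from day 5 to day 9 it was 70.2-fold lower. On the log2(FPKM + 1) scale the difference was 1.29 between day 5 and day 1, -6.09 between day 9 and day 5, -0.96 between day 13 and day 9 and -5.76 between day 13 and day 1.

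MSTRG.3979 had the same order of ovary ages at a lower level. It measured 9.78 and 41.3 FPKM at day 1, 108 and 87.0 FPKM at day 5, 0.161 and 0.577 FPKM at day 9, and 0.155 and 0.165 FPKM at day 13. The libraries of day 5 lay above all others, those of day 1 differed 4.22-fold from each other, and those of days 9 and 13 overlapped. The mean at day 5 was 265-fold that at day 9, a ratio that rests on a denominator under 1 FPKM. On the log2(FPKM + 1) scale the difference was 2.20 between day 5 and day 1 and -6.18 between day 9 and day 5.

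MSTRG.3977 had its highest ovary level at day 1. It measured 52.7 and 48.7 FPKM at day 1, 11.3 and 7.83 FPKM at day 5, 2.31 and 2.81 FPKM at day 9, and 1.65 and 1.38 FPKM at day 13. Each age lay below the one before it with no overlap. The mean at day 1 was 33.5-fold that at day 13, and the difference on the log2(FPKM + 1) scale was -4.36. Its mean ranked 1032nd among all genes in the ovary at day 1 and 7136th at day 13.

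**Figure D1:**
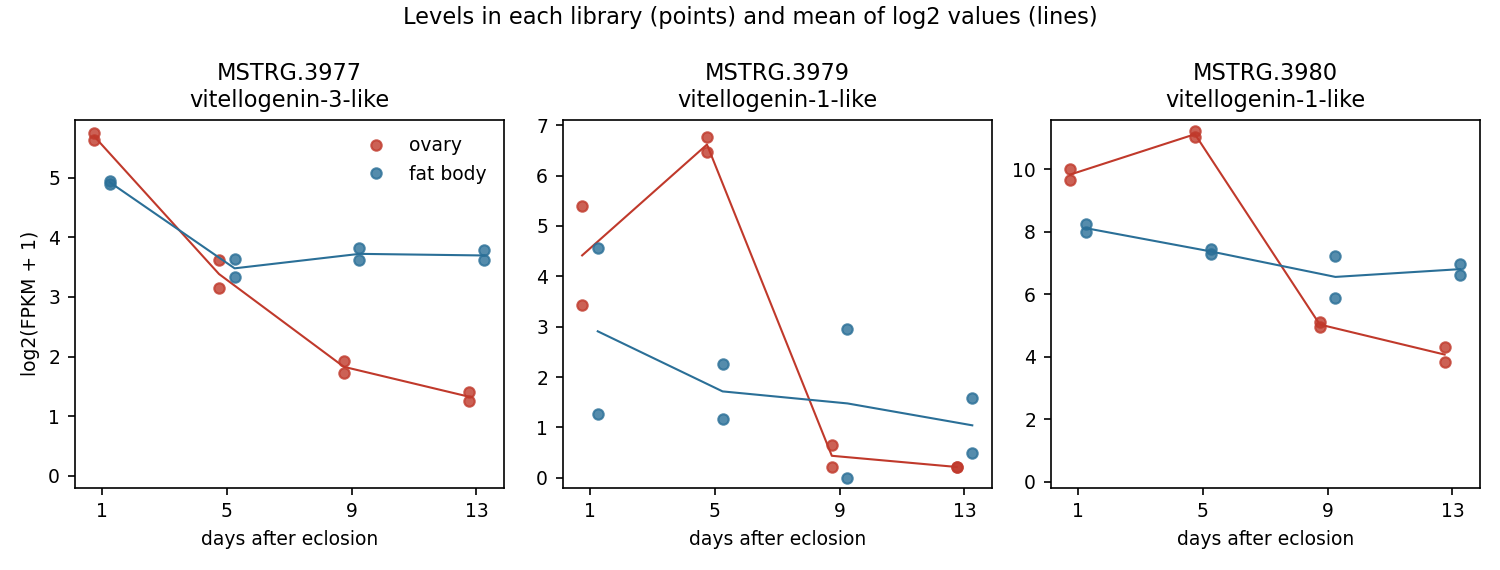
Level of each of the 3 genes in every library, as log2(FPKM + 1) against days after eclosion; points are single libraries and lines join the means of the 2 libraries per age, with ovary and fat body in different colours. MSTRG.3979 and MSTRG.3980 peak in the ovary at day 5 and lie below the fat body mean at days 9 and 13, while MSTRG.3977 is lower in the ovary at each later age.

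The ovary differences of the chosen genes are set here beside the median change over all genes tested. A fall in the ovary was used to choose them, so this comparison carries no test. Over the 10213 genes tested, the median log2 change in the ovary was -0.10 from day 1 to day 5, -0.15 from day 5 to day 9, 0.01 from day 9 to day 13 and -0.24 from day 1 to day 13. Genes called lower in the ovary at day 13 than at day 1 made up 35.0% of all genes tested. That comparison had 2125 higher and 3572 lower genes as deposited, 2922 and 2850 after median-of-ratios scaling and 2588 and 2488 after quantile normalization. Median-of-ratios scaling, quantile normalization and a pseudocount of 0.1 FPKM left the sign of every ovary difference of MSTRG.3977 and MSTRG.3980 as given.

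Markers of other cell types moved with the ovary values. The 16 muscle markers summed to 1896 to 3049 FPKM in the ovary at day 1, 4971 to 5354 FPKM at day 5, 529 to 953 FPKM at day 9 and 326 to 368 FPKM at day 13, the same order of ages as MSTRG.3979 and MSTRG.3980. The fat body markers summed to 1226 to 1484 FPKM at day 1 and 613 to 677 FPKM at day 13 in the ovary, and the 6 hemocyte markers summed to between 83.5 and 101 FPKM at day 1 and between 48.8 and 50.0 FPKM at day 13. The germ cell marker sum went the other way, from 531 to 637 FPKM at day 1 to 1389 to 1414 FPKM at day 13. Single markers went against these sums. The germ cell marker benign gonial cell neoplasm, MSTRG.6504, measured 7.79 and 9.58 FPKM at day 1 and 0.214 and 0.257 FPKM at day 13. Ovo-like MSTRG.775 measured 2.29 and 2.47 FPKM, then 0.103 and 0.137 FPKM. Troponin T MSTRG.8262, a muscle marker, measured 4.2 and 4.72 FPKM at day 1 and 39.3 and 37.9 FPKM at day 13. Troponin C-akin-1, MSTRG.7109, of the same list, measured 56.6 and 34.6 FPKM, then 135 and 126 FPKM. The fat body marker lipid storage droplets surface-binding protein 2, MSTRG.2275, measured 115 and 181 FPKM at day 1 and 365 and 399 FPKM at day 13. The hemocyte marker croquemort MSTRG.8383 stayed level, at 24.9 and 25.7 FPKM, then 26.4 and 25.0 FPKM. Germ cell markers averaging at least 1 FPKM numbered 9 of 10 at day 1 and 6 at day 13. The 7 markers of follicle cells and eggshell summed to 7.17 to 11.5 FPKM at day 1, 15.5 to 17.1 FPKM at day 5, 6362 to 11146 FPKM at day 9 and 3032 to 3518 FPKM at day 13. In the 4 ovary groups 13 or 14 of the 16 muscle markers, 8 to 14 of the 20 fat body markers and 3 or 4 of the 6 hemocyte markers averaged at least 1 FPKM. Among the fat body markers larval serum protein 2, MSTRG.5581, was listed at 0 in both ovary libraries of days 1, 5 and 13. In the fat body itself it reached at most 0.0672 FPKM up to day 9, and 1.52 and 2.29 FPKM at day 13. Transferrin MSTRG.6582, of the same list, measured 1070 and 762 FPKM in the ovary at day 1 and 1100 and 785 FPKM in the fat body. Among the hemocyte markers a peroxidasin homolog was listed at 0 in the ovary from day 9. It reached at most 0.513 FPKM in the ovary before and 0.329 FPKM in the fat body. The part of any of these cell types in the ovary values of the 3 genes was not tested. In bulk tissue, fewer cells of a type and less RNA per cell cannot be told apart.

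Marker sums and MSTRG.3980 were also set side by side in both tissues at day 5. In the fat body at day 5 the muscle markers summed to between 14984 and 15660 FPKM, above both ovary libraries of that age, while MSTRG.3980 measured 173 and 155 FPKM there against 2373 and 2070 FPKM in the ovary. Fat body markers at day 5 summed to 2681 to 3182 FPKM in the fat body and 992 to 1248 FPKM in the ovary. Both lists were higher in the fat body at that age, and MSTRG.3980 and MSTRG.3979 were higher in the ovary. Whether muscle or fat body cells in the ovary samples carry the same transcripts as those in the fat body samples was not tested.

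In the fat body the 3 genes were measured in libraries that the choice of genes did not use, and there the ages were tested. The fit took 1 spread per gene from all 16 libraries, so the ovary libraries also entered the SE and the p-values. MSTRG.3977 fell between day 1 and day 5 and passed no test in the later steps, MSTRG.3980 was lower at day 13 than at day 1, and no step of MSTRG.3979 passed the test. Tests were made with limma on log2(FPKM + 1) over the 10213 genes whose average reached 1 FPKM in any of the 8 groups, and all 3 genes passed that filter, on the values of either tissue alone. A gene counts as changed at a Benjamini-Hochberg adjusted p under 0.05 over all genes tested.

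MSTRG.3977 measured 28.7 and 29.9 FPKM in the fat body at day 1, 11.4 and 9.06 FPKM at day 5, 11.3 and 13.1 FPKM at day 9, and 12.7 and 11.2 FPKM at day 13. Both libraries of day 1 lay above all 6 later ones, whose ages overlapped. The change from day 1 to day 5 was -1.44 ± 0.18 (SE) on the log2 scale, with an adjusted p of 0.000738 by limma, and that from day 1 to day 13 was -1.23 ± 0.18, with an adjusted p of 0.000536 by limma. From day 5 to day 9 the difference was 0.24 ± 0.18 (adjusted p = 0.482, limma), and from day 9 to day 13 it was -0.03 ± 0.18 (adjusted p = 0.988, limma). Both changes from day 1 kept their direction and their call under all 17 alternatives tried.

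MSTRG.3980 measured 301 and 252 FPKM in the fat body at day 1, 173 and 155 FPKM at day 5, 149 and 57.5 FPKM at day 9, and 125 and 97.5 FPKM at day 13. The libraries of day 1 lay above all later ones, and those of days 9 and 13 overlapped. The change from day 1 to day 13 was -1.31 ± 0.36, with an adjusted p of 0.0188 by limma. This call is less firm than that of MSTRG.3977, and with the fat body fitted alone it was lost (adjusted p = 0.0667, limma). The adjusted p was 0.0891 without the first library of day 1, 0.113 without the second library of day 13 and 0.104 after median-of-ratios scaling, all by limma. The single steps gave -0.74 ± 0.36 (adjusted p = 0.207, limma) from day 1 to day 5, -0.82 ± 0.36 (adjusted p = 0.205, limma) from day 5 to day 9 and 0.25 ± 0.36 (adjusted p = 0.815, limma) from day 9 to day 13. The libraries of day 9 differed 2.59-fold from each other, and without the first of them the step from day 5 to day 9 was -1.49 with an adjusted p of 0.00671 by limma. Without either library of day 9, the step from day 1 to day 5 kept its size of -0.74 and had an adjusted p of 0.0408 by limma.

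MSTRG.3979 measured 1.40 and 22.5 FPKM in the fat body at day 1, 1.25 and 3.79 FPKM at day 5, 6.74 FPKM and a listed 0 at day 9, and 2.0 and 0.414 FPKM at day 13. The libraries of neighbouring ages overlapped at every step, and the libraries of day 1 differed 16.1-fold from each other. Its change from day 1 to day 13 was -1.87 ± 1.14 with an adjusted p of 0.267 by limma. Without the second library of day 1, the difference between day 5 and day 1 was 0.45 in place of -1.19. With an SE of 1.14, changes of this size could not be resolved.

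**Figure D2:**
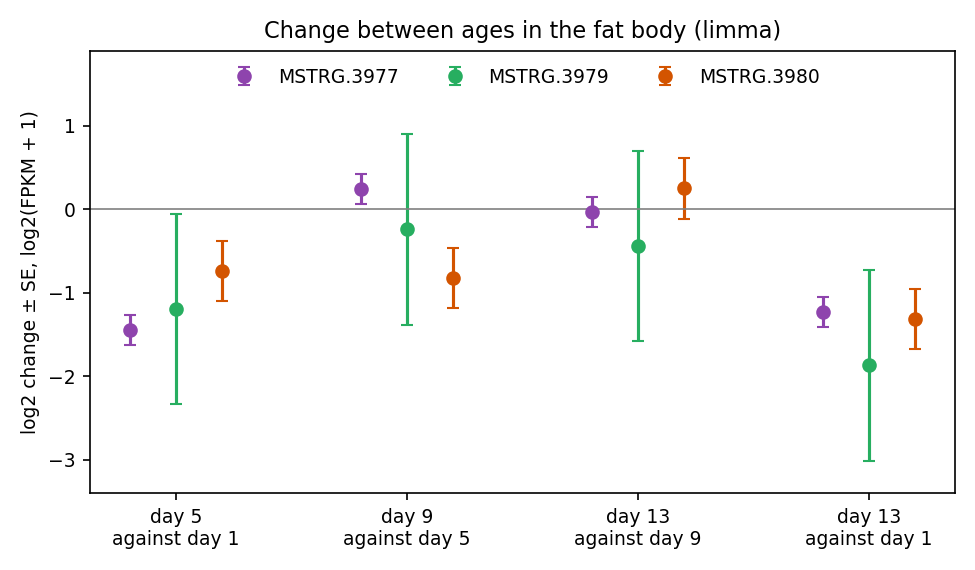
Difference between ages in the fat body for each of the 3 genes, on the log2(FPKM + 1) scale; points are limma estimates and bars are their standard errors. MSTRG.3977 lies well below 0 for day 5 and day 13 against day 1, MSTRG.3980 lies below 0 for day 13 against day 1, and the bars of MSTRG.3979 are the widest.

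The share of all genes that changed gives the background to these calls. At day 5 against day 1 in the fat body 1 of the 3 genes was called lower, against 10.7% of all genes tested, and at day 13 against day 1 it was 2 of 3, against 23.4%. In the steps from day 5 to day 9 and from day 9 to day 13 the calls were 0 of 3 by limma, with 11.1% and 7.16% of all genes changed. At an unadjusted limma p under 0.05 the step from day 5 to day 9 held MSTRG.3980 alone, and the step from day 9 to day 13 held 0 of them. The median gene changed by -0.24 between day 1 and day 13 in the fat body and by 0.04 after median-of-ratios scaling. The share of called genes that were higher depends on that scaling. It was 26.1% at day 5 against day 1 as deposited, 50.1% after median-of-ratios scaling and 47.4% after quantile normalization. For day 13 against day 1 it was 21.4%, 53.8% and 48.0%, and for day 13 against day 9 it was 24.2%, 39.9% and 44.9%, in the same order. The change of MSTRG.3977 from day 1 to day 13 lay between -1.31 and -0.76 under the alternatives, below the median gene under each scaling. In the fat body the muscle markers summed to 4174 to 4192 FPKM at day 1 and 14984 to 15660 FPKM at day 5. They summed to 10606 to 12407 FPKM at day 9 and 4252 to 4936 FPKM at day 13. At these ages the fat body markers summed to 1749 to 1818, 2681 to 3182, 9783 to 9795 and 18942 to 26582 FPKM. The hemocyte markers summed to 117 to 121, 85.6 to 88.4, 147 to 152 and 165 to 190 FPKM. The part of these shifts in the changes of the 3 genes was not tested.

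Transcripts of germ cell genes were measured in the fat body samples. Whether they came from ovary tissue or from the fat body samples' own cells was not tested. The germ cell gene vasa, an RNA helicase of the germ line, measured between 9.03 and 23.1 FPKM in the fat body libraries and between 337 and 571 FPKM in the ovary libraries. Of the 10 germ cell markers, 4 averaged at least 10 FPKM in every ovary group, and their fat body level was set against the ovary level of the same age. The median of the 4 shares was between 1.12% and 4.18% per library, but the markers differed widely, from 0.348% to 3.48% for ovo (MSTRG.1919), 0.423% to 4.80% for nanos, 1.82% to 4.51% for vasa and 5.36% to 14.4% for cup. The ovo-like gene MSTRG.775, not among the 4, was higher in the fat body, at 3.0 to 9.77 FPKM against 0.103 to 2.86 FPKM in the ovary. Taking the median share of the ovary level of the same age from MSTRG.3980 left 269.7 and 229.8 FPKM at day 1, 134.7 and 63.7 FPKM at day 5, 147.4 and 56.3 FPKM at day 9, and 124.5 and 97.3 FPKM at day 13. With the share of cup alone nothing of MSTRG.3980 was left in either library of day 5, while with nanos, ovo or vasa alone at least 48.7 FPKM was left in every fat body library. The fat body level of MSTRG.3980 at day 5 is thus uncertain, and that of MSTRG.3977 was at least 7.90 FPKM with any of the 4. With the median share, the change of MSTRG.3980 from day 1 to day 13 was -1.17 with an adjusted p of 0.069 by limma. Its step from day 1 to day 5 went from -0.74 to -1.42 (adjusted p = 0.0538, limma), and that from day 5 to day 9 from -0.82 to -0.02. The change of MSTRG.3977 from day 1 to day 13 was -1.16 (adjusted p = 0.00101, limma), and the change of MSTRG.3977 from day 1 to day 5 was -1.41 with an adjusted p of 0.00105 by limma. For MSTRG.3979 nothing was left in the libraries of day 5, so its fat body level at that age is not above what the median share of ovary RNA would give.

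Set side by side, the tissues changed places with age. MSTRG.3980 averaged 912 ± 167 FPKM (SD, n = 2) in the ovary and 276 ± 34.4 FPKM in the fat body at day 1, 3.30-fold more in the ovary. At day 5 the means were 2222 ± 214 and 164 ± 12.5 FPKM, 13.5-fold more in the ovary. At day 9 the means were 31.6 ± 2.81 FPKM in the ovary and 103 ± 64.5 FPKM in the fat body, and at day 13 they were 15.9 ± 3.84 and 111 ± 19.3 FPKM, 3.26-fold and 6.97-fold more in the fat body. At none of the 4 ages did the libraries of the tissues overlap. Because the ovary values chose the genes, this reversal has no test.

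MSTRG.3977 was 1.73-fold higher in the ovary than in the fat body at day 1, and its libraries overlapped between the tissues at day 5. At day 9 it was 4.77-fold and at day 13 7.90-fold higher in the fat body, with no overlap. For MSTRG.3979 the day 5 libraries were 38.8-fold higher in the ovary, the libraries of days 1 and 9 overlapped between the tissues, and at day 13 the fat body mean was 7.52-fold the ovary mean, with all 4 values at or under 2.0 FPKM. The order of levels follows from this. For MSTRG.3980 it ran from ovary day 5 through ovary day 1 and fat body days 1 and 5 to fat body days 13 and 9, ovary day 9 and ovary day 13, and only fat body days 13 and 9 overlapped as neighbours. For MSTRG.3977, ovary day 1 and fat body day 1 stood apart at the top, the next 4 groups (fat body days 9, 13 and 5 and ovary day 5) overlapped with their neighbours, and ovary days 9 and 13 stood apart at the bottom. For MSTRG.3979 only ovary day 5 was apart from its neighbour in the order.

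The 3 genes did not follow 1 common course. Over the 16 libraries, which share tissue and age, the log2 values of MSTRG.3979 and MSTRG.3980 correlated at r = 0.89, those of MSTRG.3977 and MSTRG.3980 at r = 0.708 and those of MSTRG.3977 and MSTRG.3979 at r = 0.499. Within the 8 ovary libraries r was 0.964 for MSTRG.3979 with MSTRG.3980, and within the 8 fat body libraries it was 0.62. These are descriptions, and they may include fragments shared between the genes, above all between the 2 vitellogenin-1-like copies.

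Among the 6 other vitellogenin products, MSTRG.3414, MSTRG.3415 and MSTRG.10714 reached the highest levels. MSTRG.3414, vitellogenin-2-like, averaged 41.0 FPKM in the ovary at day 1, 163 FPKM at day 5, 6869 FPKM at day 9 and 3372 FPKM at day 13. MSTRG.3415, a vitellogenin-1-like precursor, averaged 54.7, 422, 7382 and 3466 FPKM at these ovary ages, and MSTRG.10714, vitellogenin-1-like, averaged 23.1, 26.9, 3723 and 2218 FPKM. All 3 rose from day 5 to day 9, by 5.39 ± 0.15 (adjusted p = 5.1e-08), 4.14 ± 0.23 (adjusted p = 9.78e-07) and 7.08 ± 0.34 (adjusted p = 4.77e-07) on the log2 scale by limma. In the same step MSTRG.3980 differed by -6.09 and MSTRG.3979 by -6.18.

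At ovary day 5 MSTRG.3980 was therefore the vitellogenin product with the highest mean, and at day 9 it lay far below MSTRG.3414, MSTRG.3415 and MSTRG.10714. These 3 reached fat body means of 15264, 19100 and 9247 FPKM at day 13, where MSTRG.3980 averaged 111 FPKM. MSTRG.3414 rose there at each step, by 4.12 ± 0.15 from day 1 to day 5, 3.04 ± 0.15 from day 5 to day 9 and 0.91 ± 0.15 from day 9 to day 13, with adjusted p-values of 7.65e-07, 4e-06 and 0.0068 by limma; after quantile normalization the last step turned to -0.32, with an adjusted p of 0.261. MSTRG.3415 rose by 4.75 ± 0.23 from day 1 to day 5 (adjusted p = 3.32e-06, limma). The fall of MSTRG.3977 and the rise of MSTRG.3414 and MSTRG.3415 thus took place in the same fat body libraries between day 1 and day 5.

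**Figure D3:**
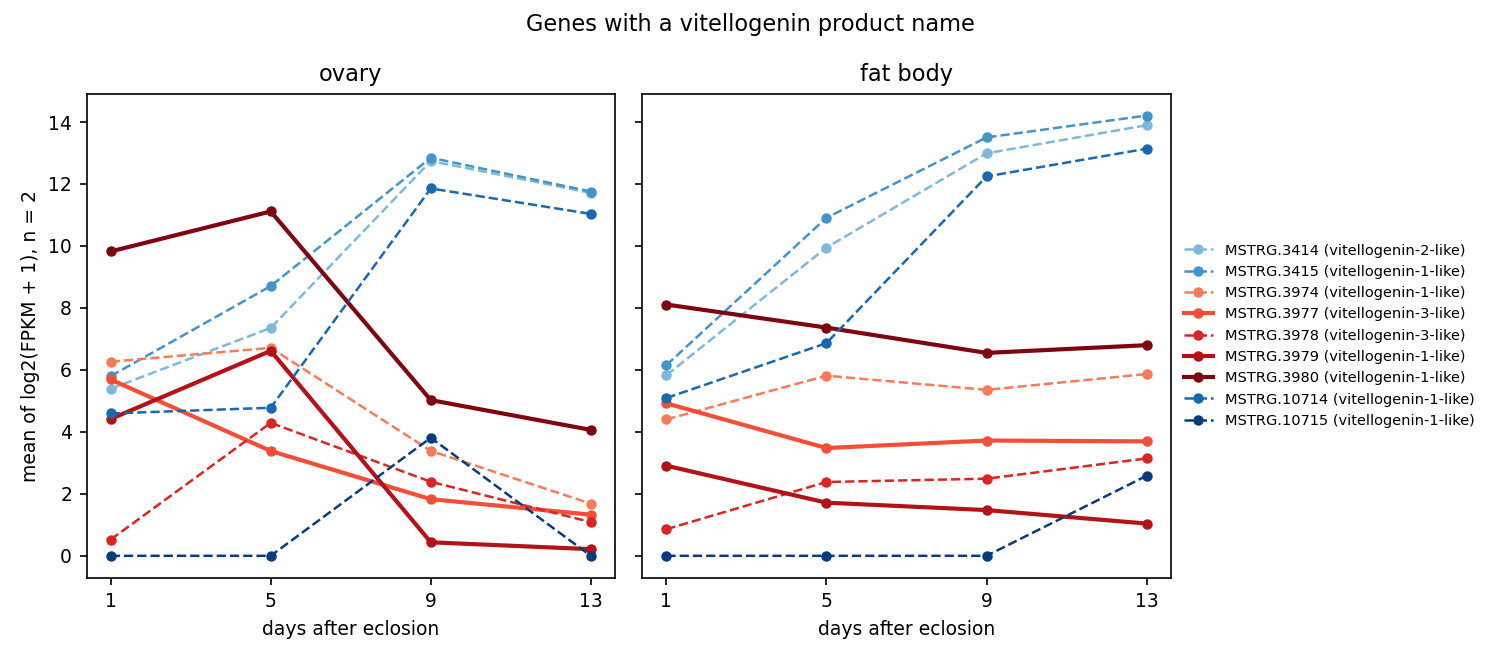
Mean of log2(FPKM + 1) over the 2 libraries per age for the 9 genes with a vitellogenin product name, in the ovary and in the fat body, against days after eclosion. MSTRG.3414, MSTRG.3415 and MSTRG.10714 climb in both tissues up to day 9, while MSTRG.3977, MSTRG.3979 and MSTRG.3980 end below their day 1 mean in both.

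The remaining vitellogenins are those whose identifiers lie next to the 3 genes, and MSTRG.10715. MSTRG.3978, vitellogenin-3-like, measured 0.228 and 0.686 FPKM in the ovary at day 1, 31.5 and 10.8 FPKM at day 5, 4.56 and 3.94 FPKM at day 9, and 1.43 and 0.855 FPKM at day 13. It rose by 3.77 ± 0.72 between days 1 and 5 (adjusted p = 0.00489, limma) and so shared the ovary peak at day 5 with MSTRG.3979 and MSTRG.3980, but its day 13 mean lay above its day 1 mean. Its next difference, -1.90 ± 0.72, had an adjusted p of 0.0618 by limma. Its fat body level rose from day 1 to day 13, by 2.28 ± 0.72 (adjusted p = 0.0368, limma), where MSTRG.3977 and MSTRG.3980 fell. That call was lost without either library of day 1, either library of day 9 or the first library of day 13, with adjusted p-values by limma from 0.0501 to 0.223. It was also lost with the replicate block (0.0628) and with the fat body fitted alone (0.0869).

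MSTRG.3974, vitellogenin-1-like, lies just outside the choice. It measured 636 and 8.29 FPKM in the ovary at day 1, 16.7 and 621 FPKM at day 5, 9.62 and 9.30 FPKM at day 9, and 7.97 and 0.151 FPKM at day 13. The libraries of day 1, and those of day 5, differed by more than any step, and no step passed the test (SE 2.23). The transcript names of MSTRG.3974 and MSTRG.3979 name the same scaffold, and those of MSTRG.3977, MSTRG.3978 and MSTRG.3980 come from another gene set. MSTRG.10715, vitellogenin-1-like, was listed at 0 in the ovary at days 1, 5 and 13 and measured 17.7 and 9.54 FPKM at day 9. Its rise from day 5 to day 9 was called by limma with an adjusted p of 0.0264, a call lost without any 1 of the 4 ovary libraries of those ages (0.0647 to 0.12) and after median-of-ratios scaling (0.0555). In the fat body 1 library of day 13 measured 34.9 FPKM, and the other 7 were listed at 0 or under 0.001 FPKM.

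Genes numbered within 5 of the 3 genes did not share 1 pattern. MSTRG.3976, annotated as the ubiquitin ligase RNF185, measured between 34.5 and 62.6 FPKM over all 8 ovary libraries. MSTRG.3982, annotated as the non-canonical poly(A) polymerase PAPD5, measured 3.49 and 4.97 FPKM in the ovary at day 1 and 35.7 and 58.4 FPKM at day 13, opposite to the 3 genes. MSTRG.3975, with no product name, measured 4.60 and 2.30 FPKM in the ovary at day 1 and 0.0557 and 0.143 FPKM at day 13. Whether close numbers mean close positions was not examined, since positions are not given here.

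Genes outside the family with the most similar course were sought over all 16 libraries, by Pearson r with the mean of the 3 genes after each was centred and scaled, among the 7028 genes whose average reached 10 FPKM in any group. The 8 most alike had r between 0.966 and 0.98 with that mean, which is not the course of any single member. Within the 8 ovary libraries, whose values chose the 3 genes, r was 0.974 to 0.994. Within the 8 fat body libraries it was 0.757 to 0.945. They were MSTRG.977 (mothers against decapentaplegic homolog 7, an inhibitory Smad of TGF-beta signalling), MSTRG.896 (a peroxidase), MSTRG.5872 (the homeobox protein abdominal-A, which patterns the abdomen), MSTRG.8579 (tensin-3, which links integrins to actin), MSTRG.6941 (annotated as transforming growth factor beta-1-induced transcript 1 protein, a focal adhesion adaptor), MSTRG.6840 (an uncharacterized product) and MSTRG.5441 and MSTRG.8742, which have no product name. The libraries share their tissue and age, and the likeness carries no test.

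Peroxidase MSTRG.896 had ovary means of 176 FPKM at day 1, 380 FPKM at day 5, 9.03 FPKM at day 9 and 5.35 FPKM at day 13. Its fat body means were 94.5, 58.3, 29.2 and 32.3 FPKM at these ages. Like MSTRG.3980, all 8 genes had the higher mean in the ovary up to day 5 and in the fat body from day 9. Abdominal-A averaged 27.5 FPKM in the ovary at day 1 and 0.813 FPKM at day 13, and tensin-3 averaged 109 and 5.97 FPKM at those ages. Of these 8 genes only MSTRG.896 and MSTRG.5441 had a higher mean at ovary day 5 than at day 1.

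**Figure D4:**
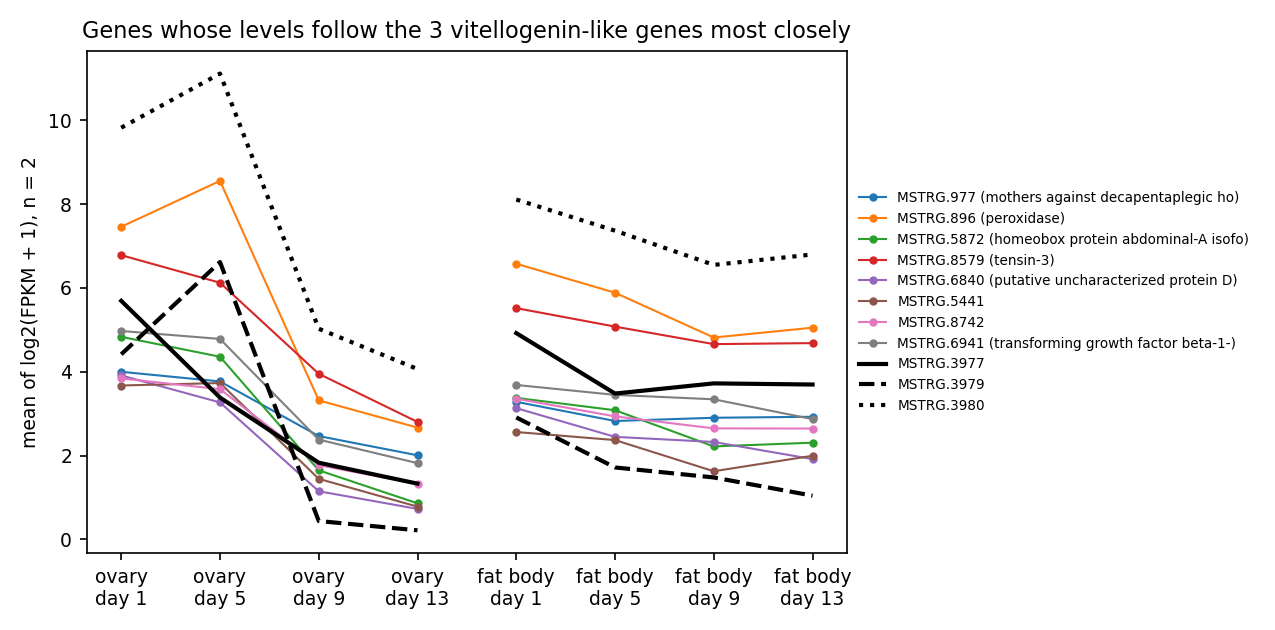
Mean of log2(FPKM + 1) over the 2 libraries of each group for the 3 vitellogenin-like genes and the 8 genes whose values over the 16 libraries were most like theirs. All lines lie lowest in the ovary at days 9 and 13, and MSTRG.896 has the same ovary peak at day 5 as MSTRG.3979 and MSTRG.3980.

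The yolk pathway around the 3 genes was described with 6 lists of 119 genes in all, without the 3 genes, of which 89 were tested. In the ovary 13 rose and 19 fell from day 1 to day 5, against 23.8% of all genes changed. From day 5 to day 9, 19 rose and 17 fell, against 38.0%. From day 9 to day 13, 3 rose and 6 fell, against 4.22%, and this last count was 2 to 5 in all under 5 of the alternatives. The share of all called genes that were higher was 31.2% at the first ovary step and 36.6% at the second as deposited, 42.7% and 53.7% after median-of-ratios scaling, and 49.3% and 49.8% after quantile normalization. In the fat body 7 rose and 17 fell from day 1 to day 5, 10 rose and 2 fell from day 5 to day 9, and 3 rose and 3 fell from day 9 to day 13, against 14.5%, 11.1% and 7.16% of all genes changed. Single libraries moved these counts. Without the second ovary library of day 5 the first ovary step had 16 changed genes in place of 32, and without the first or second ovary library of day 9 the next had 21 or 22 in place of 36. Without the first or second fat body library of day 5 the first fat body step had 11 or 13 in place of 24, and without the first of them the next had 5 in place of 12. Without the first or second fat body library of day 9, or the first of day 13, the last fat body step had 3, 2 and 3 in place of 6, and the last ovary step had from 0 to 3 when any 1 library of day 9 or day 13 was left out. The genes named from here on kept their call under the 16 alternatives tried for them unless said otherwise.

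Among the 14 tested lipase relatives of the yolk proteins, 0 rose and 6 fell in the ovary from day 1 to day 5 (list median log2 change -0.66), and 0 rose and 3 fell in the fat body (median -0.23). Over all genes tested, 758 rose and 1668 fell in this step in the ovary, and 388 rose and 1096 fell in the fat body. After median-of-ratios scaling these counts were 816 and 1093 in the ovary and 644 and 642 in the fat body. MSTRG.5183, pancreatic lipase-related protein 2, a fat-digesting enzyme by name, averaged 73.3 ± 53.2 FPKM in the ovary at day 1 and 11.8 ± 1.05 FPKM at day 5, a fall of -2.33 ± 0.40 (adjusted p = 0.00283, limma). Its fat body means were 201 ± 11.6 and 32.6 ± 1.82 FPKM, a fall of -2.59 ± 0.40 (adjusted p = 0.00248, limma). In the step from day 5 to day 9, in which MSTRG.3979 and MSTRG.3980 had their largest ovary difference, 1 lipase relative rose and 0 fell in the ovary. That gene was MSTRG.5513, lipase member H-A, which averaged 7.50 FPKM at day 5 and 18.7 FPKM at day 9 (1.23 ± 0.17, adjusted p = 0.000302, limma).

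Of the 12 tested uptake receptors and adaptors, 2 rose and 1 fell in the ovary from day 1 to day 5 (list median -0.03) and 2 rose and 6 fell from day 5 to day 9 (median -0.49). MSTRG.8753, the putative vitellogenin receptor, which brings yolk precursors into the oocyte, averaged 14.2 ± 6.41 FPKM at day 1 and 177 ± 25.6 FPKM at day 5, a rise of 3.62 ± 0.45 (adjusted p = 0.000506, limma). It rose in the ovary in the step in which MSTRG.3980 was also higher, but did not follow that gene later. At ovary day 13 the receptor averaged 349 ± 52.3 FPKM, 4.59 ± 0.45 above day 1 (adjusted p = 1.06e-05, limma). MSTRG.3980 averaged 15.9 FPKM at that age. Cubilin MSTRG.4344, an endocytic co-receptor, fell by 0.81 in that step, with an SE of 0.15 and an adjusted p of 0.00363 by limma. Cubilin MSTRG.6392 averaged 12.9 ± 0.734 FPKM at day 5 and 2.06 ± 2.09 FPKM at day 9 (-2.38 ± 0.48, adjusted p = 0.00289, limma). Among the 12 in the fat body 1 rose from day 1 to day 5, 1 rose and 1 fell from day 5 to day 9, and 1 rose from day 9 to day 13.

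Of the 9 tested endocytosis genes, 1 rose in the ovary from day 1 to day 5, and 1 rose and 2 fell from day 5 to day 9. In the fat body 1 fell in the first step, MSTRG.9968, annotated as the early endosome GTPase RAB5B, which averaged 73.0 FPKM at day 1 and 38.8 FPKM at day 5 (-0.90 ± 0.12, adjusted p = 0.00109, limma). Of the 18 tested yolk proteases and proton pump subunits, which process and acidify yolk and lysosomes, 1 rose and 8 fell in the ovary from day 1 to day 5 (median -0.47) and 0 rose and 8 fell in the fat body (median -0.46). Falls also outnumbered rises over all genes tested in this step as deposited, by the counts given for the lipase relatives. Cathepsin B, MSTRG.7547, a lysosomal protease, fell in both, from 277 ± 20.9 to 97.7 ± 8.01 FPKM in the ovary (-1.49 ± 0.18, adjusted p = 0.000375, limma) and from 422 ± 53.6 to 206 ± 20.0 FPKM in the fat body (-1.03 ± 0.18, adjusted p = 0.00416, limma). From day 5 to day 9, 1 rose and 1 fell in the ovary and 3 rose in the fat body.

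Of the 30 tested hormone and sex regulators, 6 rose and 4 fell in the ovary from day 1 to day 5 (median 0.12), and 10 rose and 8 fell from day 5 to day 9 (median 0.31). Ecdysone-induced protein 74EF, MSTRG.5256, a transcription factor of the ecdysone response, averaged 18.1 ± 11.2 FPKM in the ovary at day 1 and 3.05 ± 0.215 FPKM at day 5 (-2.11 ± 0.41, adjusted p = 0.00494, limma). Krueppel homolog 1, MSTRG.1353, a juvenile hormone response factor, averaged 4.89, 14.3, 4.54 and 2.75 FPKM in the ovary at days 1, 5, 9 and 13. Its fall from day 5 to day 9 was -1.47 ± 0.34 (adjusted p = 0.00617, limma). Its rise from day 1 to day 5 was 1.41 ± 0.34 (adjusted p = 0.0146, limma), but the adjusted p was 0.0892 without the second library of day 1 and 0.0871 without the second library of day 5. It thus had its highest ovary mean at day 5, the age at which MSTRG.3979 and MSTRG.3980 did. In the fat body it took another course, with means of 4.19, 12.3, 11.8 and 20.6 FPKM at days 1, 5, 9 and 13. Its rise there from day 1 to day 13 was 2.12 ± 0.34 (adjusted p = 0.000995, limma), where MSTRG.3977 and MSTRG.3980 fell.

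Juvenile hormone epoxide hydrolase 1-like, MSTRG.9415, named for an enzyme that degrades juvenile hormone, averaged 57.7 ± 1.18 FPKM in the ovary at day 5 and 508 ± 10.8 FPKM at day 9 (3.11 ± 0.23, adjusted p = 4.92e-06, limma). It rose in the step in which MSTRG.3979 and MSTRG.3980 were lower at the later age. It also rose in the fat body, from 6.65 to 23.9 FPKM between days 5 and 9 (1.75 ± 0.23, adjusted p = 0.00079, limma) and fell to 5.24 FPKM at day 13 (-2.0 ± 0.23, adjusted p = 0.0012, limma), while the 3 vitellogenin-like genes passed no test in those steps. Of the hormone and sex regulators in the fat body, 3 rose and 5 fell from day 1 to day 5, 1 rose and 1 fell from day 5 to day 9, and 0 rose and 1 fell from day 9 to day 13.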

How the data were processed

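RNA of adult female ovary and fat body was extracted with Trizol and read on an Illumina instrument, per the labels' protocols. The authors deposited 1 table of FPKM values, 1 column per library. Per the submitters' processing notes, the tools were Bowtie 0.12.2, HISAT2 2.0 and StringTie 1.3.0, with no role stated; the build named there, mm8, is of the mouse, and the fly assembly is not given in the sources used here. Genes are named by the table's product description and identifier, not by its symbol column.

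FPKM were analysed as log2(FPKM + 1), as deposited. All 16 libraries entered 1 fit with limma 3.58.1 in R 4.3.3 (trend and robust moderation, 1 coefficient per group), over 10213 genes averaging 1 FPKM or more in a group. The fit was tested on simulated data. The 3 genes and the lists were chosen with earlier results of these data known. The genes named were the 3, all vitellogenin products, genes numbered within 5 of them, the 8 most like them and up to 2 per list, step and direction; of the last, only some with 10 FPKM or more in the group with the higher mean are given, a narrowing made after values were seen. Alternatives were other pseudocounts, filters, scalings, moderation, a replicate block, 1 tissue only and each library left out. Subtraction of an ovarian share, tissue gaps under other settings, and other pseudocounts and scalings for ovary values, were chosen after seeing the data. Relative depth, from low values, ran from 0.858 to 1.106 of the first ovary library of day 1. Replicate libraries had an r across genes of 0.919 to 0.966. Plots used Python 3.11.15, pandas 2.3.3, numpy 2.4.6 and matplotlib 3.10.9.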

Additional observations from a re-analysis of the deposited data

Results flagged for a closer look

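Differences between the tissues in the same age step were looked for among the vitellogenin products. For MSTRG.3980 the ovary difference from day 1 to day 5 was 1.29 and the fat body difference was -0.74, and in neither tissue did the libraries of these ages overlap; the gap of 2.04 on the log2 scale was not tested, because the ovary ages chose the gene.

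For vitellogenins outside the choice the difference between the tissues was tested by limma as ovary minus fat body change. From day 1 to day 5 MSTRG.3414 gave -2.15 (adjusted p = 0.00066, limma; ovary 1.96, fat body 4.12) and MSTRG.3415 gave -1.85 (adjusted p = 0.00983, limma; ovary 2.91, fat body 4.75). From day 5 to day 9 the order turned, with 2.35 for MSTRG.3414 (adjusted p = 8.06e-05, limma), 1.55 for MSTRG.3415 (adjusted p = 0.0059, limma) and 1.70 for MSTRG.10714 (adjusted p = 0.0254, limma), larger rises in the ovary. From day 9 to day 13 MSTRG.3414 gave -1.93 (adjusted p = 0.00198, limma; ovary -1.03, fat body 0.91) and MSTRG.3415 gave -1.80 (adjusted p = 0.0145, limma; ovary -1.09, fat body 0.71). After quantile normalization this last gap was -0.04 for MSTRG.3414 (adjusted p = 0.964, limma) and -0.16 for MSTRG.3415 (adjusted p = 0.831, limma). Within the ovary, the difference of MSTRG.3415 from day 9 to day 13 lost its call under 7 of 16 alternatives, among them the replicate block (adjusted p = 0.0543, limma), and that of MSTRG.3414 under 3. The gaps of the earlier steps kept their direction and call under the 8 other settings that leave out no library; leaving libraries out was not run for these gaps.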

How the results depend on the processing

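MSTRG.3977 kept its fat body fall under all 17 alternatives for day 5 against day 1 (adjusted p 0.000683 to 0.00996, limma) and for day 13 against day 1 (0.00049 to 0.0142). MSTRG.3980 at day 13 against day 1 kept its call under 12 of 17 (adjusted p 0.0013 to 0.113, limma). It gave -0.85 after median-of-ratios scaling, -1.31 with the fat body fitted alone (adjusted p = 0.0667, limma) and -1.17 after subtraction of an ovarian share; the causes were not tested. Uncalled differences that changed sign were MSTRG.3977 at day 13 against day 9 (0.10 after median-of-ratios scaling, 0.10 after quantile normalization) and MSTRG.3979 at day 13 against day 9 (0.33 with a pseudocount of 0.1) and day 9 against day 5 (1.47 after the subtraction).

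With 1 library left out, in the order day 5 against day 1, day 9 against day 5, day 13 against day 9 and day 13 against day 1, the fat body values ranged as follows. MSTRG.3977 ran from -1.59 to -1.29, 0.09 to 0.39, -0.13 to 0.07 and -1.31 to -1.14. MSTRG.3979 ran from -2.84 to 0.45, -1.71 to 1.24, -1.91 to 1.04 and -3.51 to -0.22. MSTRG.3980 ran from -0.87 to -0.62, -1.49 to -0.14, -0.43 to 0.93 and -1.49 to -1.14. Counts of all changed genes ran from 617 to 1490 (1484 in the full fit), 568 to 1260 (1137), 400 to 799 (731) and 2212 to 3074 (3038), and with the fat body fitted alone they were 795, 705 and 304 for the 3 steps. List counts, in the order of the 3 steps, ran from 16 to 30, 21 to 41 and 0 to 10 in the ovary and from 11 to 22, 5 to 13 and 2 to 7 in the fat body. With 1 tissue fitted alone the fat body lists had 14 changed genes in the first step and 7 in the next. For day 13 against day 9 in the ovary they had 5 with the lower pseudocount, 3 with the filter at 5 FPKM, 4 after quantile normalization, 2 with the ovary alone and 4 with the replicate block, against 9.

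The replicate numbers did not pair the libraries: deviations of same-numbered libraries from their group means correlated at -0.079 to 0.0349 in the ovary and -0.149 to 0.146 in the fat body, and at 0.0156 to 0.0834 between the tissues at the same age. With the replicate block, MSTRG.3977 at day 5 against day 1 was -1.44 (adjusted p = 0.00303, limma) and MSTRG.3980 at day 13 against day 1 was -1.31 (adjusted p = 0.0133, limma). Each group has 2 libraries, and their depth is not given. MSTRG.3979, at or under 22.5 FPKM in the fat body, could not be resolved, as its libraries differed 16.1-fold at day 1 and 4.82-fold at day 13.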
